A study of Komagataella pastoris with 6 samples.

Results

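The plasma membrane H+-ATPase (PAS_chr1-1_0002) and 2 ATP-binding cassette (ABC) transporters homologous to PDR12 of Saccharomyces cerevisiae (PAS_chr4_0832 and PAS_chr1-1_0398) were followed in Pichia pastoris that produces d-lactic acid, with and without a flocculation gene. The genes were picked by identifier from the study's own list of changed genes, which gives their products. All 3 were found among the 5040 genes of the count table, and all 3 were among the 5029 genes that passed the filter on low counts, a mean of at least 10 reads. The flocculating strain, KM71-ScFlo1-LpDLDH, expresses FLO1 of S. cerevisiae (ScFLO1) together with a codon-optimised d-lactate dehydrogenase gene of Leuconostoc pseudomesenteroides (LpDLDH), both from the constitutive GAP promoter. The control strain, KM71-LpDLDH, carries LpDLDH alone. Both derive from the laboratory strain KM71, and 3 cultures of each were sampled in mid-exponential phase, in minimal MGYH medium, whose carbon source is glycerol and which contains histidine, at about 21 h (30 °C, 250 rpm, starting OD600 0.05). The methods name no added lactic acid for these cultures. They also do not say how many transformants of a strain were sampled. ScFLO1 entered on a plasmid with a HIS4 marker that the control lacks, so effects of ScFLO1, of that plasmid and of any other difference between the isolates cannot be told apart.

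In yeast, the plasma membrane H+-ATPase is a P-type pump that spends ATP to move protons out of the cytosol, and the gradient it builds drives most nutrient uptake and helps to keep the cytosol near neutral. A weak acid that enters a cell undissociated releases a proton and an anion inside, and the H+-ATPase can remove only the proton. In S. cerevisiae, the anions of some weak acids are substrates of the ABC transporter Pdr12. It exports carboxylates such as sorbate, benzoate and propionate and is induced through the transcription factor War1. For hydrophilic acids such as lactic acid, the study names a different regulator of the S. cerevisiae response, Haa1. The roles of the P. pastoris homologs are inferred here from those of S. cerevisiae, and their transport activity was not measured.

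The libraries held between 10386352 and 12767753 reads on genes. Levels are given as CPM, read counts set to a common library total, after scaling by TMM, a method that corrects for differences in RNA composition, with the SD over 3 cultures. A CPM is a share of the RNA of a culture, so fewer transcripts in every cell and fewer cells with the transcript cannot be told apart. Gene lengths were not analysed here, so CPM values of different genes are not compared as transcript levels. Each gene was tested with edgeR's quasi-likelihood test over all 5029 genes with Benjamini-Hochberg adjustment, and a gene was called only if its adjusted p was under 0.05 and its change exceeded 2-fold. By this rule 16.4% of the tested genes were called, 8.41% higher and 7.99% lower with ScFLO1. The adjusted p alone was passed by 64.2%, with 32.6% higher and 31.5% lower. Because the study chose the 3 genes on these same libraries, their tests describe these libraries and are no independent evidence of a direction. The table lists P. pastoris genes only, so the transcripts of ScFLO1 and LpDLDH were not analysed here.

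The H+-ATPase gene was about 2-fold higher in the flocculating strain. It had 2347, 2102 and 2580 CPM in replicates 1, 2 and 3 of KM71-LpDLDH. In the same order, the cultures of KM71-ScFlo1-LpDLDH had 5068, 4913 and 4658 CPM. The strains did not overlap, which held for 68.9% of all tested genes, and the lowest flocculating culture was well above the highest control culture. The means were 2343 ± 239 CPM (SD, n = 3) without ScFLO1 and 4880 ± 207 CPM (SD, n = 3) with it. This was a 2.08-fold rise, or 1.06 ± 0.09 (SE) as a log2 fold change, and edgeR gave it an adjusted p of 2.66e-05. Over the 9 pairs of one flocculating and one control culture, the log2 difference lay between 0.85 and 1.27. The rise itself is therefore larger than the spread between cultures, while its position relative to the 2-fold threshold is not settled. The 95% interval of the log2 fold change from limma, 0.79 to 1.34, spans the threshold of 1. A test of whether the change exceeds 2-fold (edgeR's glmTreat) gave an adjusted p of 0.893, and without replicate 2 of KM71-LpDLDH the log2 fold change was 0.98.

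**Figure D1:**
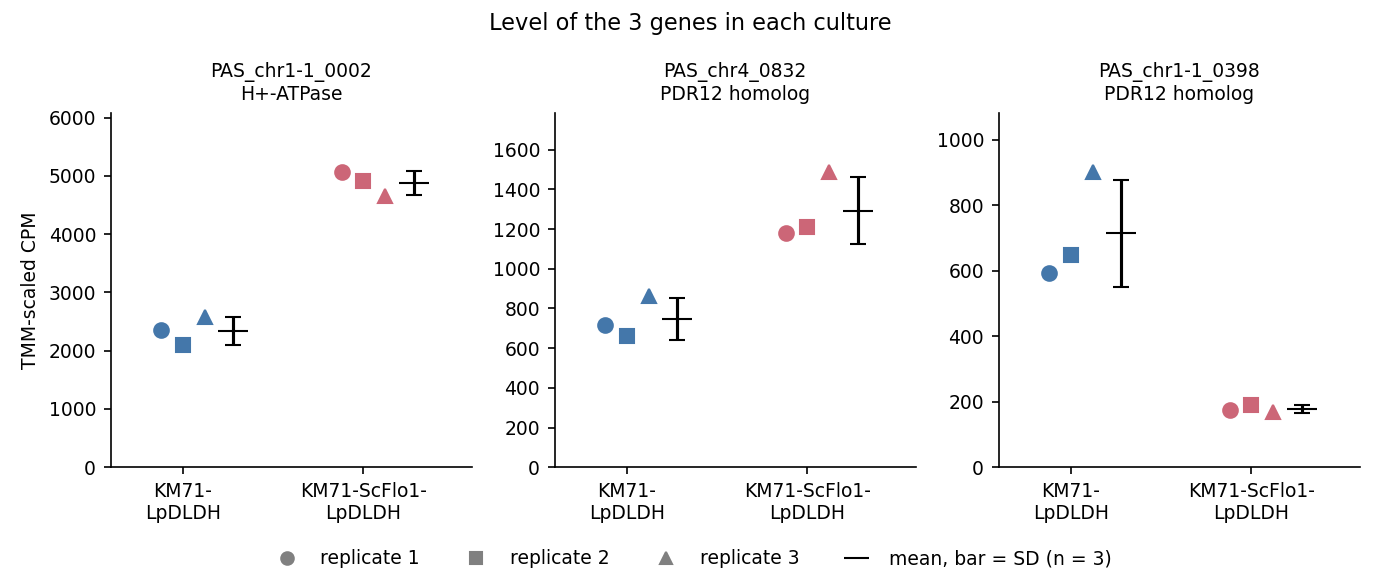
Level of each gene in TMM-scaled CPM (vertical axes, each from 0) in the 3 cultures of KM71-LpDLDH (blue) and of KM71-ScFlo1-LpDLDH (red). Symbols are replicates and black bars are the mean with SD (n = 3). In each panel the strains do not overlap: the H+-ATPase (2343 against 4880 CPM) and PAS_chr4_0832 (747 against 1292 CPM) are higher with ScFLO1, and PAS_chr1-1_0398 (714 against 177 CPM) is lower.

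Of the PDR12 homologs, PAS_chr4_0832 was higher in the flocculating strain, by less than 2-fold. Replicates 1, 2 and 3 of KM71-LpDLDH had 717, 659 and 865 CPM. Those of KM71-ScFlo1-LpDLDH had 1180, 1208 and 1487 CPM. Replicate 3 was the highest culture in both strains, and the strains did not overlap. The means, 747 ± 106 CPM (SD, n = 3) without ScFLO1 and 1292 ± 170 CPM (SD, n = 3) with it, gave a 1.73-fold rise. Its log2 fold change of 0.79 ± 0.16 (SE) had an adjusted p of 0.000462 by edgeR and did not reach the fold change threshold. With limma its 95% interval ran from 0.50 to 1.08, so a 2-fold rise lies just inside what these cultures allow. The log2 difference over the 9 pairs of cultures was between 0.45 and 1.17.

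The other PDR12 homolog, PAS_chr1-1_0398, was 4.02-fold lower in the flocculating strain. It had 593, 647 and 901 CPM in replicates 1, 2 and 3 of KM71-LpDLDH. The cultures of KM71-ScFlo1-LpDLDH, in that order, had 175, 190 and 167 CPM, so the strains did not overlap. The mean was 714 ± 164 CPM (SD, n = 3) without ScFLO1 and 177 ± 11.7 CPM (SD, n = 3) with it. The log2 fold change was -2.01 ± 0.19 (SE), at an adjusted p of 1.87e-06 by edgeR. This was the change farthest from 0 of the 3 genes, and the smallest log2 difference over the 9 pairs of cultures was -1.64. A fall beyond 2-fold also passed edgeR's glmTreat, at an adjusted p of 0.000103. The control cultures spread more than the flocculating ones, with coefficients of variation of 23.0% and 6.61%. Replicate 3 of KM71-LpDLDH, at 901 CPM, was the culture that set the size of the fall most, and without it the log2 fold change was -1.81. Counting alone gives a coefficient of variation of at most 2.41% for any of the 3 genes in any library, so depth does not limit these comparisons.

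The PDR12 homologs changed in opposite directions, and their reads can be compared within each library, where no scaling between libraries is needed. In KM71-LpDLDH the reads of the homologs were close in number, with ratios of PAS_chr1-1_0398 to PAS_chr4_0832 of 0.827, 0.982 and 1.04 by replicate number. In KM71-ScFlo1-LpDLDH the ratios were 0.148, 0.157 and 0.112. On the log2 scale the mean ratio went from -0.08 ± 0.17 (SD, n = 3) to -2.86 ± 0.26 (SD, n = 3), a difference of -2.78 (standard error 0.18), which is a 6.86-fold shift toward PAS_chr4_0832. PAS_chr1-1_0398 supplied 48.6% ± 2.99 (SD, n = 3) of the reads of the pair without ScFLO1 and 12.2% ± 1.85 (SD, n = 3) with it. The 95% Wilson interval of this share in a single library was at most 1.58 percentage points wide, and such intervals cover counting error only. Since the genes were chosen with these changes known, the ratio is a description and was given no p-value. An equal number of reads is not an equal number of transcripts, but gene length cancels in the change of the ratio between the strains.

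The summed level of the PDR12 homologs did not differ between the strains beyond the spread of the cultures. By replicate number it was 1310, 1306 and 1765 CPM in KM71-LpDLDH, and 1355, 1398 and 1654 CPM in KM71-ScFlo1-LpDLDH. The flocculating cultures all lay within the range of the control cultures, and replicate 3 was the highest in each strain. The mean sum was 1460 ± 264 CPM (SD, n = 3) for the control and 1469 ± 162 CPM (SD, n = 3) for the flocculating strain, a difference of 8.65 CPM with a standard error of 179 CPM. In CPM, the mean gain of PAS_chr4_0832 thus nearly equalled the mean loss of PAS_chr1-1_0398. With this standard error, a moderate change of the sum in either direction cannot be told from none. Gene length does not cancel in a sum as it does in the change of the ratio. Equal gain and loss in CPM are therefore not equal numbers of transcripts. With CPM by total count the log2 difference of the sum was 0.12, against 0.02 with TMM. Whether the homologs share stretches of sequence to which reads could map equally well was not analysed here.

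**Figure D2:**
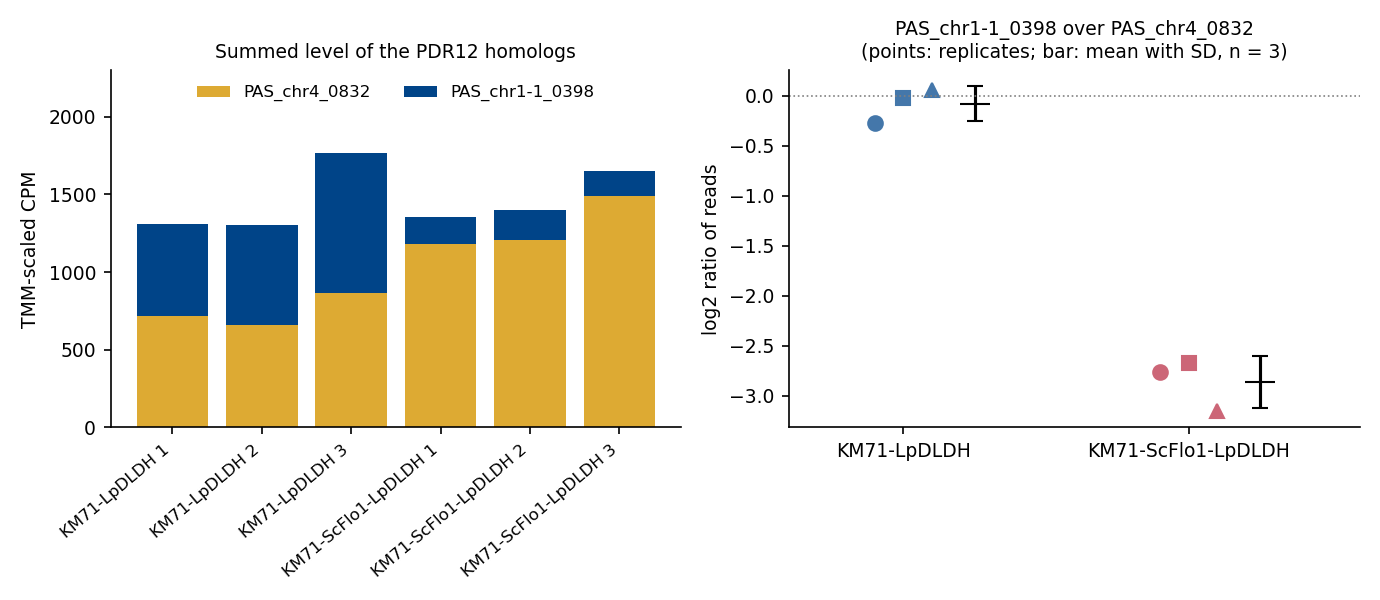
Left, TMM-scaled CPM of PAS_chr4_0832 (yellow) and PAS_chr1-1_0398 (blue) stacked for each of the 6 cultures, from 0. Right, log2 ratio of the reads of PAS_chr1-1_0398 to those of PAS_chr4_0832 in each culture, with the mean and SD (n = 3). The bars of both strains reach between 1306 and 1765 CPM, while the mean log2 ratio drops from -0.08 to -2.86.

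The H+-ATPase gene and the PDR12 homologs were also set against each other by the ratio of their reads, while proton export was not measured. The H+-ATPase rose relative to PAS_chr1-1_0398, from a ratio of 3.36 ± 0.555 (SD, n = 3) in KM71-LpDLDH to 27.6 ± 1.61 (SD, n = 3) in KM71-ScFlo1-LpDLDH. Relative to PAS_chr4_0832 the mean ratio was 3.15 ± 0.149 (SD, n = 3) and 3.83 ± 0.616 (SD, n = 3). By replicate number, the ratio to PAS_chr4_0832 was 4.29, 4.07 and 3.13 in KM71-ScFlo1-LpDLDH, and the last of these lay within the control range of 2.98 to 3.27. The rises of the H+-ATPase and of PAS_chr4_0832 thus differed by 0.27 on the log2 scale (standard error 0.15), and their cultures overlapped. Replicate 3 of KM71-ScFlo1-LpDLDH was the flocculating culture with the least H+-ATPase, the most PAS_chr4_0832 and the least PAS_chr1-1_0398. Against the sum of both homologs, the H+-ATPase ratio went from 1.62 ± 0.165 (SD, n = 3) to 3.36 ± 0.482 (SD, n = 3), with no overlap.

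Differences between the strains were common by the adjusted p and by lack of overlap, and less common by the size of the change. Of the 3 genes, 2 were called, the H+-ATPase as higher and PAS_chr1-1_0398 as lower, against 16.4% of all tested genes. Since the study chose the genes on these same libraries, their calls and their ranks by fold change are descriptions only. All 3 passed the adjusted p, against 64.2%, and all 3 showed no overlap between the strains, against 68.9%, so neither sets them apart by itself. The median log2 fold change was 0.02 among the tested genes. A log2 fold change above that of the H+-ATPase was found in 7.34% of the tested genes, and 12.8% were above PAS_chr4_0832. The fall of PAS_chr1-1_0398 ranked 84 among all tested genes, with 1.65% of them lower.

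**Figure D3:**
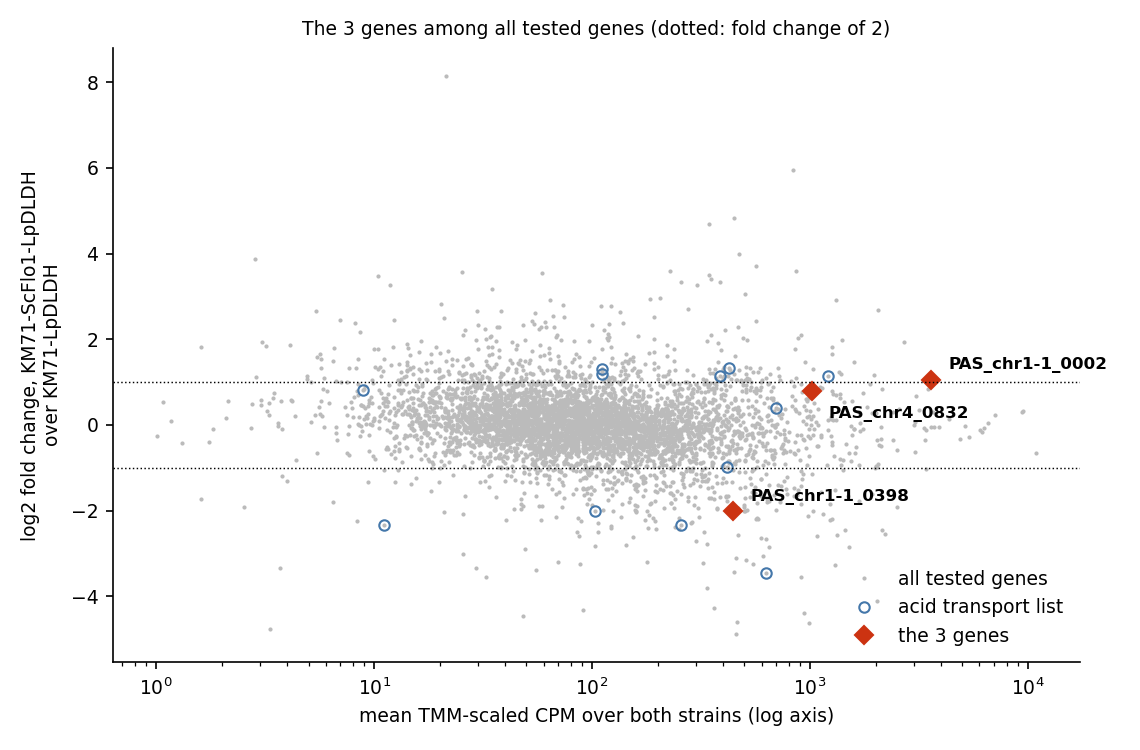
Log2 fold change (vertical axis) against mean TMM-scaled CPM over both strains (horizontal log axis, not per length) for the 5029 tested genes (grey), the 12 acid transport genes (blue circles) and the 3 genes (red diamonds). The H+-ATPase lies at a log2 fold change of 1.06, next to the dotted line that marks 2-fold, PAS_chr4_0832 lies under it at 0.79, and PAS_chr1-1_0398 at -2.01 lies among the larger falls.

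Other genes that the study annotated as carriers of weak acids, or as homologs of S. cerevisiae genes for acid or multidrug transport, gave the setting for these changes. This list of 12 was chosen by the study on the same libraries. By the edgeR test, 5 of the 12 were called higher, 4 were called lower and 3 were not called, against 8.41% higher and 7.99% lower among all tested genes. The median log2 fold change of the 12 was 0.61. All 12 passed the adjusted p, which 64.2% of all tested genes did. The genes called higher were the lactate transporter homologous to JEN1, PAS_chr3_0440 (log2 fold change 1.19), 2 homologs of the acetate carrier ADY2, PAS_chr1-1_0378 (1.13) and PAS_chr2-1_0874 (1.33), the acetate transporter PAS_chr2-1_0649 (1.30) and PAS_chr4_0784 (1.15), a homolog of FPS1, the aquaglyceroporin of S. cerevisiae. Their log2 fold changes of 1.13 to 1.33 lay near that of the H+-ATPase, with standard errors of 0.14 to 0.31 against 0.09. With single libraries left out, 4 to 6 of the 12 were called higher. As with the H+-ATPase, none of the 5 passed edgeR's glmTreat for a change beyond 2-fold, while the 4 genes called lower did. By glmTreat, 9.64% of all tested genes were called, 211 higher and 274 lower. Among the genes called lower, the 3 homologs of ESBP6, a monocarboxylate permease-like gene of S. cerevisiae, had log2 fold changes between -2.00 and -3.47. The fall of PAS_chr1-1_0398 was thus close to the smallest fall among the ESBP6 homologs, that of PAS_chr3_0278 at -2.00. Homologs of TPO2 and TPO3, polyamine exporters of S. cerevisiae, had log2 fold changes of 0.40 for PAS_chr4_0836, -0.99 for PAS_chr1-3_0215 and -2.34 for PAS_chr1-4_0431. For the falls of the last 2, the strains did not overlap. For PAS_chr4_0836 the strains overlapped (adjusted p = 0.0401, edgeR). A change in both directions is therefore less clear for these homologs than for those of PDR12. PAS_chr4_0836 is 4 numbers after the PDR12 homolog PAS_chr4_0832.

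**Figure D4:**
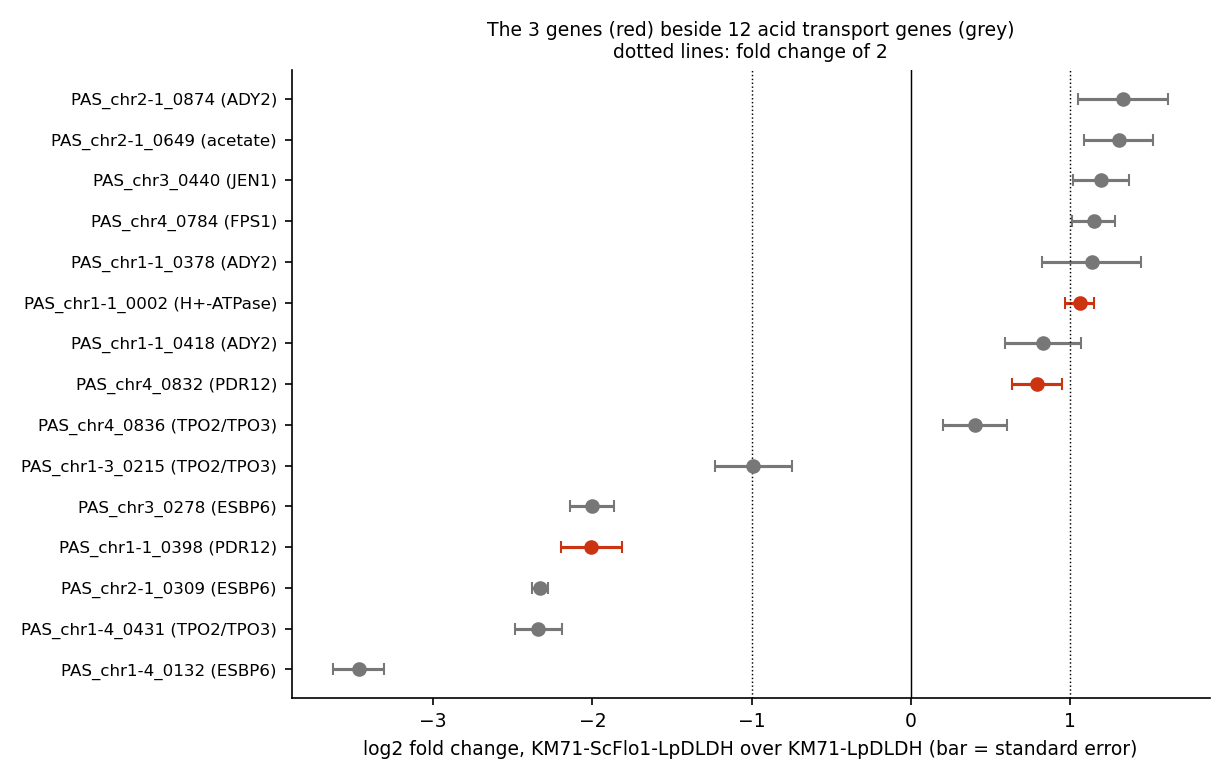
Log2 fold change of KM71-ScFlo1-LpDLDH over KM71-LpDLDH with its standard error for the 3 genes (red) and the 12 acid transport genes (grey), ordered by value. Dotted lines mark a fold change of 2. The H+-ATPase at 1.06 and PAS_chr4_0832 at 0.79 sit at the lower end of the rises, near PAS_chr1-1_0418 at 0.83 and above PAS_chr4_0836 at 0.40, and PAS_chr1-1_0398 at -2.01 sits beside the ESBP6 homolog PAS_chr3_0278 at -2.00.

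Genes with neighbouring identifier numbers were examined, because overlap between genes and the strand of the reads could not be examined from this table. The gene numbered after the H+-ATPase had a log2 fold change of 0.44 (adjusted p = 0.0656, edgeR) and a mean of 353 CPM in KM71-LpDLDH against 2343 CPM for the H+-ATPase. On either side of PAS_chr4_0832, the next genes had log2 fold changes of 0.09 and -0.18, neither past the adjusted p. The gene numbered before PAS_chr1-1_0398 was lower with ScFLO1, at a log2 fold change of -0.47 (adjusted p = 0.0139, edgeR), in the same direction as PAS_chr1-1_0398 but under the fold change threshold. The gene numbered after it was called higher with ScFLO1, at 1.25, from a mean of 48.3 CPM to 115 CPM, and so changed in the direction opposite to PAS_chr1-1_0398. Within 4 numbers of the 3 genes, 2 of 20 other genes were called higher and 1 was called lower, close to the 8.41% and 7.99% of all tested genes. The gene 4 numbers before PAS_chr4_0832 was among those called higher, at a log2 fold change of 4.70 (mean of 25.5 CPM without and 663 CPM with ScFLO1). The gene called lower, at -1.41, was 2 numbers before PAS_chr4_0832. No gene directly next to one of the 3 by number passed both thresholds in its direction. All 4 neighbours of the H+-ATPase had higher numbers, so the side of lower numbers was not examined. Positions were not analysed here, so genes next to each other by number need not be adjacent.

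For each of the 3 genes, the tested gene with the most similar pattern was taken as the one with the smallest Euclidean distance between log2 CPM values over the 6 libraries, each gene centred on its own mean. The files do not pair these genes with names. For the H+-ATPase it was PAS_chr3_0353 (distance 0.15, against a median of 1.35 over all tested genes), with a log2 fold change of 1.00. The gene nearest to PAS_chr4_0832 was PAS_chr4_0132 (distance 0.14, median 1.11), with a log2 fold change of 0.77 and 20.6 ± 3.16 CPM (SD, n = 3) in the control strain. PAS_chr1-1_0398 was nearest to PAS_chr1-4_0061 (distance 0.23, median 2.52), with a log2 fold change of -2.04. PAS_chr1-4_0061 had 33.7 ± 7.10 CPM (SD, n = 3) in the control strain and 8.15 ± 1.47 CPM (SD, n = 3) in the flocculating strain. Of the acid transport genes, the FPS1 homolog PAS_chr4_0784 was the nearest both to the H+-ATPase, at rank 22 of all genes, and to PAS_chr4_0832, at rank 331. The TPO2 and TPO3 homolog PAS_chr1-4_0431 was the nearest to PAS_chr1-1_0398, at rank 41.

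The estimates changed little with the way the counts were scaled and tested. The log2 fold change of the H+-ATPase was between 1.04 and 1.17 under the other scalings, filters and tools. Leaving out single libraries gave 0.98 to 1.13. PAS_chr4_0832 stayed between 0.67 and 0.91 and did not pass the fold change threshold in any of these fits. PAS_chr1-1_0398 stayed between -2.13 and -1.81 and was called in all of them. Total-count scaling moved the median of all tested genes from 0.02 to 0.13, and relative to that median the 3 genes had log2 fold changes of 1.04, 0.76 and -2.03, against 1.03, 0.77 and -2.03 with TMM.

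**Figure D5:**
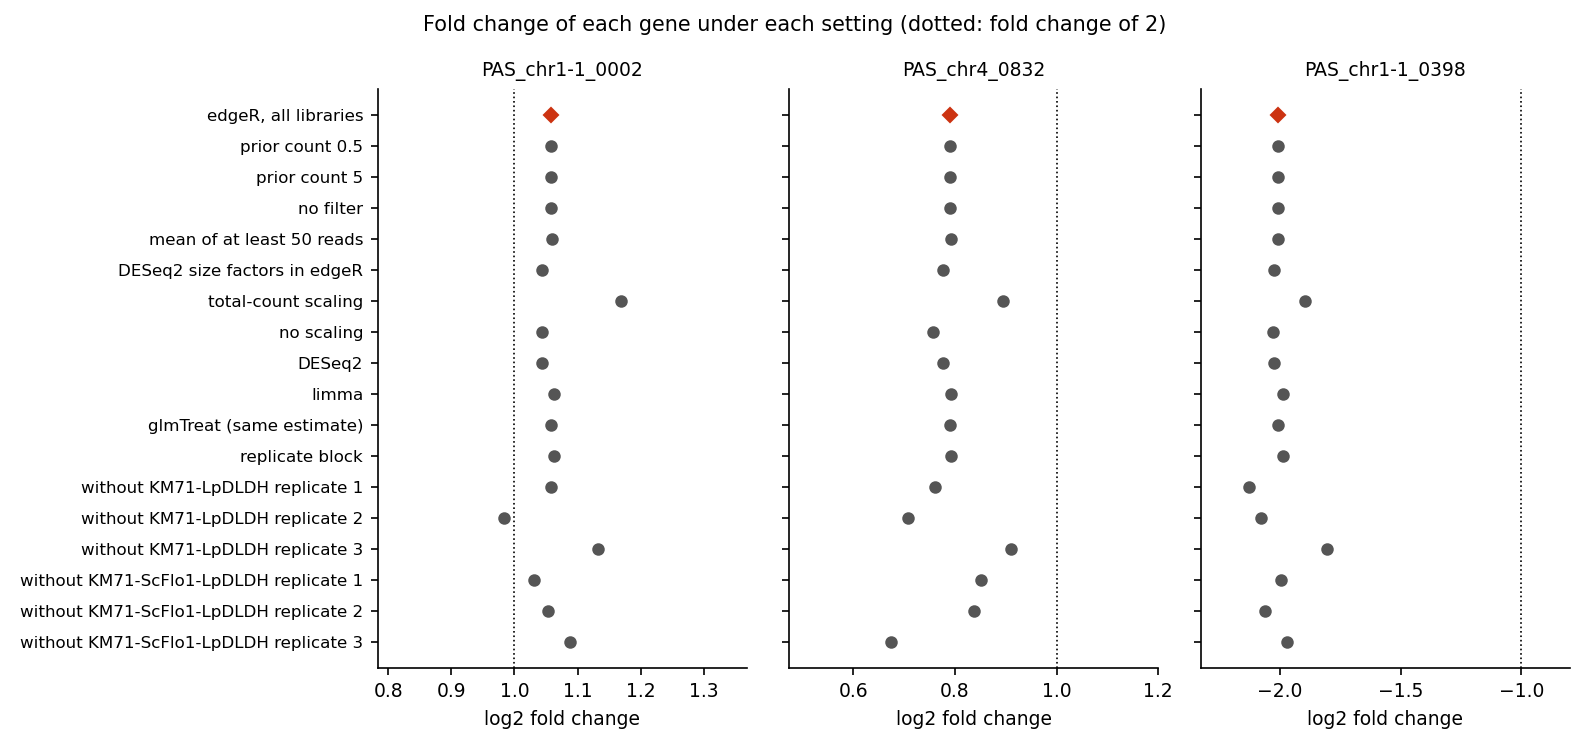
Log2 fold change of each gene (horizontal axes) with edgeR on all libraries (red diamond, top) and under each other setting (grey points), with a dotted line at a fold change of 2. The H+-ATPase crosses the line without replicate 2 of KM71-LpDLDH (0.98), PAS_chr4_0832 stays under it and PAS_chr1-1_0398 stays beyond it throughout.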

How the data were processed

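RNA of 3 cultures of KM71-LpDLDH and 3 of KM71-ScFlo1-LpDLDH was sequenced. According to the methods, paired reads of 150 nt passed quality control with fastp, were aligned with HISAT2 against P. pastoris GS115 and counted by HTSeq-count. Tool versions and strand setting were not given in the sources used here. A single table of read counts, in whole numbers, was deposited. It is named as normalized but was used as raw counts: library totals differ, and DESeq2 size factors ran from 0.872 to 1.15, where counts already divided by them would give values near 1. All 6 columns were matched to samples. The replicate pairs differed by more than counting noise (chi-square per degree of freedom of 11.9 to 68.1), and each library counted as 1 replicate, since the methods describe triplicate cultures.

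Genes averaging 10 reads or more were kept (5029 of 5040), scaled by TMM (factors 0.941 to 1.07) and tested with edgeR 4.0.16 in R 4.3.3 (quasi-likelihood test, prior count 0.125). DESeq2 1.42.0 and limma 3.58.1 served as alternatives. Standard errors and distances used log2 CPM with a prior count of 2. The tests were checked on simulated counts, in which a small part of the genes changed, each by more than 2-fold. That check does not cover change in most genes or changes close to the 2-fold threshold. With 3 cultures against 3, an exact permutation test of 1 gene cannot go below 0.1. Names came from the study's gene list, and 0 identifiers of the reference gene table, made for another assembly, matched, so lengths, positions and further annotated lists, planned for that case, were not used. The rule for named genes took the 3 genes, the 12 acid transport genes, the gene most alike in pattern to each of the 3, and the genes numbered next to them. The window of 4 numbers was chosen after the values were seen. The genes and lists were chosen with earlier results of these data known.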

Additional observations from a re-analysis of the deposited data

How the results depend on the processing

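Across prior counts, filters, scalings, DESeq2, limma and the replicate number as a block, the 3 genes kept their directions and their side of both thresholds. For the H+-ATPase this ended with edgeR's glmTreat (log2 fold change 1.06, adjusted p 0.893) and without replicate 2 of KM71-LpDLDH (0.98). PAS_chr4_0832, not called in any of these fits, had an adjusted p of 1 with glmTreat, which tests for a change beyond 2-fold, against 0.000462. For the H+-ATPase, single libraries left out gave 0.98 to 1.13. Its adjusted p otherwise ranged from 4.53e-23 (DESeq2) to 0.000504 (edgeR without replicate 1 of KM71-LpDLDH). With each library left out in turn, PAS_chr4_0832 ranged from 0.67 to 0.91 and PAS_chr1-1_0398 from -2.13 to -1.81. The difference in the log2 ratio of the PDR12 homologs ranged from -2.87 to -2.63, and that of their summed level from -0.07 to 0.16, on both sides of 0.

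The number of genes called, 825 (423 higher and 402 lower), was 166 (77 and 89) at a fold change above 4, which fewer genes can pass. With glmTreat it was 485, of which 211 were higher. The number of acid transport genes called higher then went from 5 to 0, while the number called lower stayed at 4. Over all tested genes, 816 were called with DESeq2 and 862 with total-count scaling, which shared 810 and 763 genes with the 825. Total-count scaling called 522 genes higher and 340 lower, so that 60.6% of the calls were higher, against 51.3% with TMM. With each library left out, the number of genes called ran from 794 to 886.

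The replicate numbers are not stated to mark shared cultures or days. Deviations of same-numbered libraries from their strain means correlated at -0.13, 0.05 and 0.11, and 2 of 6 libraries correlated best with their own number, so the numbers were not taken as pairs. With the replicate block, 829 genes were called, 821 of them among the 825, and the log2 fold changes of the 3 genes were 1.06, 0.79 and -1.98.

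With 3 cultures per strain, the spread between cultures and not the sequencing depth limits how closely the fold changes are known.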
